A study of Drosophila melanogaster with 3 samples.

Results

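The canonical and variant histone genes are the 116 rows of the deposited expression table, out of 17611 genes in all, whose symbol marks a repeated copy of a histone gene (His1, His2A, His2B, His3 or His4 followed by a copy name) or is His2Av, His3.3A, His3.3B, His4r or BigH1. They comprise 111 repeated copies and 5 variant genes. They were chosen by name and not by level. RNA came from wing imaginal discs, epithelial sacs in the larva that later become the wing and much of the thorax, of wandering Drosophila melanogaster larvae raised at 25 °C to about 5 days after egg laying. The labels give the genotype as w;apGAL4/+, which carries 1 copy of a GAL4 driver that follows apterous, a gene of the dorsal wing compartment, and they call the variation wild type. The column names of the table carry the prefix w118, which is in no label. Each of the 3 libraries was made from 100 to 120 pooled discs, and all 3 belong to 1 group, so the comparisons are between genes, with the spread over libraries as the error. No label ties the 3 RNA samples to separate cultures, and p-values then measure only the spread between these samples, which may be technical.

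Histones package DNA into nucleosomes, each made of H2A, H2B, H3 and H4, with histone H1 on the linker between them. In Drosophila the bulk of these proteins is made during S phase from a tandem array of replication-dependent genes, whose mRNAs end in a stem-loop bound by Slbp and are, as a rule, not polyadenylated. Replacement variants such as H3.3 and H2Av are encoded by genes outside the array, have polyadenylated mRNAs and are deposited in chromatin independently of replication. Wing discs proliferate through most of larval life, so canonical histones are needed in the tissue.

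The libraries held 25047773 to 26454949 recovered reads each. Levels are in FPKM, which counts sequenced fragments per kilobase of a gene's exons after scaling for library size. All 6 markers of the wing disc (ap, ct, nub, sd, vg and wg) stood at 1 FPKM or more in every library, and none of 3 eye disc markers or 5 germline markers did. Among all genes, 42.9% reached that level in every library. Markers of fat body, salivary gland and gut differed between the libraries, while the 4 neuron markers summed to 3.23, 3.26 and 3.38 FPKM in libraries 1, 2 and 3. The 8 gut markers summed to 9.52, 875 and 412 FPKM in libraries 1, 2 and 3, the 6 salivary gland markers to 132, 838 and 304 FPKM, and the 7 fat body markers to 541, 899 and 2464 FPKM. Of the gut markers, LysD, betaTry and Mal-A1 were highest in library 3 and the others in library 2.

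The repeated copies lie together on chromosome arm 2L, from 21416953 to 21541681 (dm6 coordinates, Ensembl release 115 annotation), a span of 125 kb. They form 23 blocks that each begin with a copy of His1, the linker histone gene. In all 23 blocks the genes follow the order His1, His2B, His2A, His4, His3, with His1, His2A and His3 on the plus strand and His2B and His4 on the minus strand. The table holds 23 copies of His1, 20 of His2A, 23 of His2B, 23 of His3 and 22 of His4. A complete set of 5 genes is present in 19 blocks, while 3 blocks have no His2A member and 1 has no His4 member. The starts of successive His1 copies were 4843 to 5151 bases apart in 21 of 22 cases, with a median of 5045 over all 22, and the longest distance was 14041 bases. Within a type the copies are alike in the annotation: each is a single exon with 1 transcript, of 1023 bases for His1, 595 for His2B, 529 for His3, 476 to 493 for His2A and 412 to 528 for His4.

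**Figure D1:**
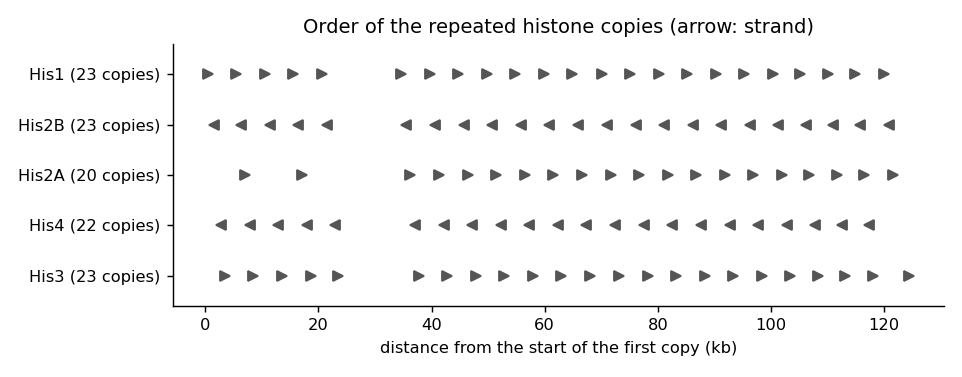
Positions of the 111 repeated histone copies as distance in kb from the start of the first copy, 1 row per histone type, with arrowheads pointing right for the plus strand and left for the minus strand. The 23 blocks repeat at a near-constant spacing, with 1 wider gap after the fifth block, and His2A is missing from 3 of the first 5 blocks.

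All 111 repeated copies are listed at 0 FPKM in libraries 1, 2 and 3. This holds for each of the 23 His1, 20 His2A, 23 His2B, 23 His3 and 22 His4 copies, so the sum over a type is also listed at 0 in every library. Among all genes, 21.0% are listed at 0 in all 3 libraries. Canonical histones are used by every dividing cell, and other genes that every cell uses are listed at 0 too, so these entries are given as listed values with no limit on the true level and no fold against them.

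Several other families of repeated genes were wholly or mostly listed at 0. All 96 copies of the 5S ribosomal RNA gene, which encodes a structural RNA of the large ribosomal subunit, are listed at 0 in the 3 libraries. The same is true of both copies of the 7SL RNA gene, which encodes the RNA of the signal recognition particle, and of 34 of 34 copies of Su(Ste), a repeat of the Y chromosome that silences Stellate in the testis. Of 12 copies of Stellate (Ste) itself, 11 are at 0 and 1 had reads, at no more than 0.0376 FPKM. Of 297 tRNA genes, 267 (89.9%) are at 0. Of 31 snRNA genes 11 (35.5%) are at 0, and of 287 snoRNA genes 56 (19.5%), beside 21.0% of all genes. The 5S copies have 134 to 135 exon bases and the tRNA genes 71 to 87, fewer than the 412 to 1023 of the histone copies. The snRNA genes have 71 to 444 and the snoRNA genes 46 to 511. The part of length in these shares was not tested. RNaseP:RNA, the RNA subunit of ribonuclease P, is listed once and has the same exon length as each 7SL copy, 299 bases. It stood at 20.1, 19.7 and 19.0 FPKM in libraries 1, 2 and 3, while each 7SL copy is listed at 0 in all of them. Also listed once, and lower, were RNaseMRP:RNA at 1.87, 5.55 and 1.78 FPKM and snRNA:7SK at 0.676, 2.26 and 1.26 FPKM. These non-coding genes were chosen for comparison after their values were seen.

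Most other short protein-coding genes without introns had reads. Among 792 other protein-coding genes with 1 exon and an exon length of 412 to 1023 bases, the range of the repeated histone copies, 182 (23.0%) were at 0 in all 3 libraries and 157 (19.8%) reached 1 FPKM in each. Over all 13839 other protein-coding genes, 1706 (12.3%) were at 0. The histone copies make up 6.11% of the 1817 protein-coding genes listed at 0. The sources used here do not state how reads with several matches were counted or whether the library kit selected polyadenylated RNA, and the part of either in the zeros was not tested.

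**Figure D2:**
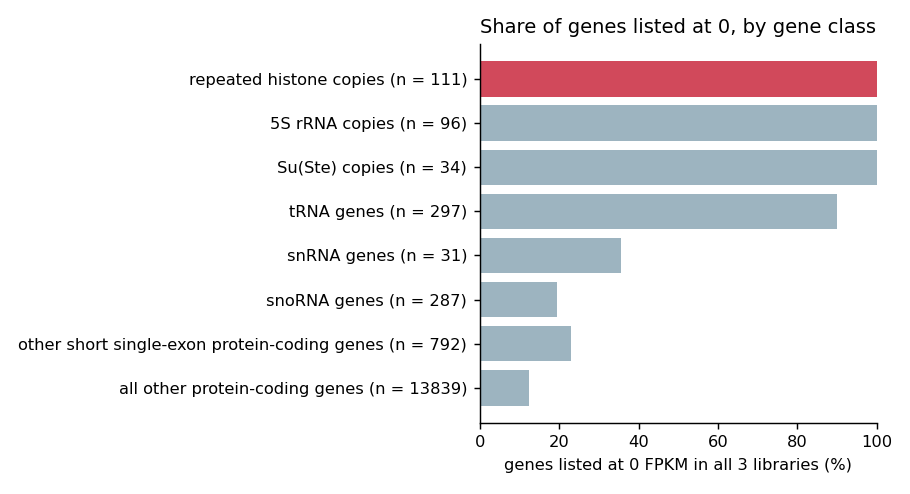
Share of genes listed at 0 FPKM in all 3 libraries, in percent, for 8 gene classes, with the number of genes in brackets and the repeated histone copies in red. The histone, 5S rRNA and Su(Ste) copies are at 100%, tRNA genes at 89.9% and other short single-exon protein-coding genes at 23.0%.

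The array region was not without any reads. The table lists 24 other rows inside the array: 20 snmRNA rows, all at 0, and 4 histone pseudogenes. Pseudogenes lie in the places where a histone gene is missing. His-Psi:CR33802, His-Psi:CR33805 and His-Psi:CR33811 lie between His2B and His4 in blocks 1, 3 and 5, which have no His2A member, and all 3 are at 0. His-Psi:CR33867 lies between His2A and His3 in block 23, which has no His4 member. It stood at 2.998, 4.17 and 2.36 FPKM in libraries 1, 2 and 3, from 42, 57 and 31 recovered reads. It was the highest in library 2 and above 1 FPKM in each, the single row within the array with any read. Of 4 further pseudogenes beside the array, 3 are at 0 and His-Psi:CR31614 had 1 recovered read in library 1, none in library 2 and 1 in library 3.

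Genes on either side of the array had reads. The nearest protein-coding gene in the table to the left, nrv3, which encodes a subunit of the sodium pump, lies 23.6 kb away and stood at 0.0157, 0.0404 and 0.0419 FPKM. The nearest to the right, Lamp1, a lysosomal membrane protein gene, lies 31.7 kb away and stood at 178, 203 and 198 FPKM.

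Of the 5 variant genes, 4 were among the more highly expressed genes of the disc, and the fifth had 4 reads in all. His4r, His3.3B, His2Av and His3.3A reached 1 FPKM in every library, as did 42.9% of all genes. A one-sided limma test of the mean log2(FPKM + 0.1) against 1 FPKM called the same 4 genes with a Benjamini-Hochberg adjusted p of 3.87e-06 each, and 53.4% of the 13909 genes tested were called. Of the 116 histone genes, 5 had a value above 0 in any library and so entered that test. Together the variant genes took 0.284% of the recovered reads. Their exon numbers and places are unlike those of the array. His4r has 3 exons in its longest-split transcript and lies at 3R 14625755 to 14626614, and His2Av has 5 and lies at 3R 26866929 to 26869220. His3.3A has 2 and lies at 2L 5055058 to 5056149, and His3.3B has 3 and lies at X 9152523 to 9156669. In RNA of pooled discs a level cannot tell apart how many cells express a gene and how much RNA each cell holds.

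His4r encodes a histone H4 from a gene outside the array, with 103 codons, as many as each His4 copy. It stood at 906, 930 and 964 FPKM in libraries 1, 2 and 3, a mean of 933 ± 28.7 FPKM (SD, n = 3). In FPKM this was the highest level of the variants in every library and rank 102 of all genes, though His3.3B had more recovered reads. Counting intervals, which cover counting error only, were 894 to 919 FPKM in library 1 and 950 to 977 FPKM in library 3 (exact Poisson, 95%). They did not overlap, but they take the scaling for library size as exact. Recovered reads of His4r were 19217, 19228 and 19184 in libraries 1, 2 and 3, so the difference in FPKM rests on that scaling.

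H3.3 is encoded by a pair of genes with coding sequences of equal length, 136 codons, the same as that of the His3 copies. His3.3B stood at 511, 514 and 543 FPKM in libraries 1, 2 and 3, a mean of 523 ± 17.5 FPKM (SD, n = 3), at rank 134. Library 3 was the highest in FPKM and the other libraries lay close together. In recovered reads, at 34757, 34066 and 34653, library 3 was not the highest, so its place rests on the scaling for library size. His3.3A stood at 191, 186 and 177 FPKM, a mean of 185 ± 7.37 FPKM (SD, n = 3), at rank 337. Here library 3 was the lowest. The counting intervals of His3.3A were 186 to 196 FPKM in library 1 and 171 to 182 FPKM in library 3, and did not overlap. Library 3 also had the highest sum of fat body markers, 2464 FPKM against 541 and 899 FPKM in libraries 1 and 2. Lsp1gamma had the largest part of it, at 940 FPKM in library 3. Fbp1 stood at 164 FPKM in both libraries 2 and 3, and Fbp2 at 74.4 and 77.3 FPKM. The part of fat body in the levels of His3.3A, His3.3B and His4r was not tested. His3.3A had 16.8% of its exon bases covered by exons of Nepl3, a neprilysin-like peptidase gene on the other strand, which stood at 36.3, 34.7 and 38.6 FPKM. The strand setting of the counting is not stated in the sources used here.

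His2Av is the only H2A variant of Drosophila and serves both in transcription, like H2A.Z, and in the response to DNA damage, like H2A.X. It has 141 codons, against 124 in the His2A copies. It stood at 477, 472 and 480 FPKM in libraries 1, 2 and 3, a mean of 476 ± 4.14 FPKM (SD, n = 3), at rank 138. It was the steadiest of the variants: its SD of log2(FPKM + 0.1) was 0.0126, smaller than that of all but 3.31% of the 7556 genes detected in every library. The SDs of His4r, His3.3B and His3.3A were 0.0443, 0.0478 and 0.0580, against a median of 0.0612 over the detected genes.

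BigH1 is a linker histone of the early embryo and the germline, with 353 codons against 256 in the His1 copies. It lies at 3R 14663450 to 14664822, 36.8 kb from His4r. It stood at 0.0587, 0 and 0.0625 FPKM in libraries 1, 2 and 3, from 2, 0 and 2 recovered reads. The mean was 0.0404 FPKM with an exact 95% Poisson interval of 0.0110 to 0.103 FPKM over the 4 reads together. It did not pass the limma test (adjusted p = 0.999999). Germline markers were low as well: the 5 germline markers lay between 0.0388 FPKM for nos and 0.405 FPKM for bgcn on average.

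**Figure D3:**
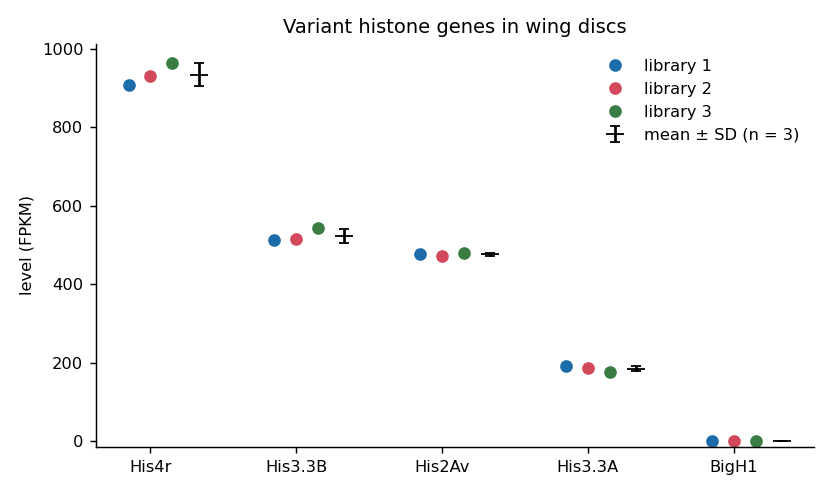
Levels of the 5 variant histone genes in FPKM on a linear axis, with 1 coloured point per library and the mean ± SD of 3 libraries in black. The order His4r, His3.3B, His2Av, His3.3A holds in each library, from 933 down to 185 FPKM on average, and BigH1 lies near 0.

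In FPKM the order of the variants was the same in all 3 libraries, and the ranges of neighbouring genes did not overlap. Log2 ratios were taken within each library, where the scaling of the library cancels. His3.3A was lower than His3.3B, at -1.42, -1.46 and -1.62 in libraries 1, 2 and 3, a mean of -1.50 ± 0.11 (SD, n = 3). The ratio of His2Av to His3.3A was 1.32, 1.34 and 1.44, a mean of 1.37 ± 0.07. His2Av and His3.3B lay closest, with ratios of -0.10, -0.12 and -0.18 and a mean of -0.13 ± 0.04. His4r exceeded His2Av by 0.93, 0.98 and 1.01, a mean of 0.97 ± 0.04. Each ratio had the same sign in 3 of 3 libraries, and an exact permutation test by sign flips (two-sided) gave p = 0.25 throughout, below which 3 libraries cannot go.

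Summed over both genes, H3.3 stood at 707 ± 10.5 FPKM, with a smaller SD than His3.3B alone. The ratio of His2Av to this sum was -0.56, -0.57 and -0.58, a mean of -0.57 ± 0.013, and that of His4r to it was 0.37, 0.41 and 0.42, a mean of 0.40 ± 0.03. These sums were formed after the values were seen.

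The ratios depended on the length by which reads were divided. The table's FPKM uses the merged exons of all transcripts, which span 2552 bases for His3.3B but 1002 for His3.3A, 1224 for His2Av and 796 for His4r. The 4 annotated transcripts of His3.3B run from 1399 to 2114 bases, so no single transcript has the merged length. In recovered reads His3.3B led, with 34757, 34066 and 34653 reads in libraries 1, 2 and 3, against 19217, 19228 and 19184 for His4r, 15551, 14991 and 14692 for His2Av and 5100, 4851 and 4427 for His3.3A. Divided by the shortest annotated transcript of each gene, the log2 ratio of His3.3A to His3.3B was -1.99, and without any length it was -2.85. The ratio of His4r to summed H3.3 was 0.17 per shortest transcript and changed sign per coding length, to -0.63, and without length, to -1.03. The ratio of His4r to His2Av was 1.07 per shortest transcript, 0.80 per coding length and 0.35 without length. His4r stayed above His2Av, and His2Av stayed below His3.3B, under all of these. No ratio of His4r to His3.3B was taken. Per coding length, the ratio of His2Av to His3.3B was -1.25, larger in size than the 0.80 of His4r to His2Av. His3.3B therefore led His4r per coding length as well as in recovered reads.

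**Figure D4:**
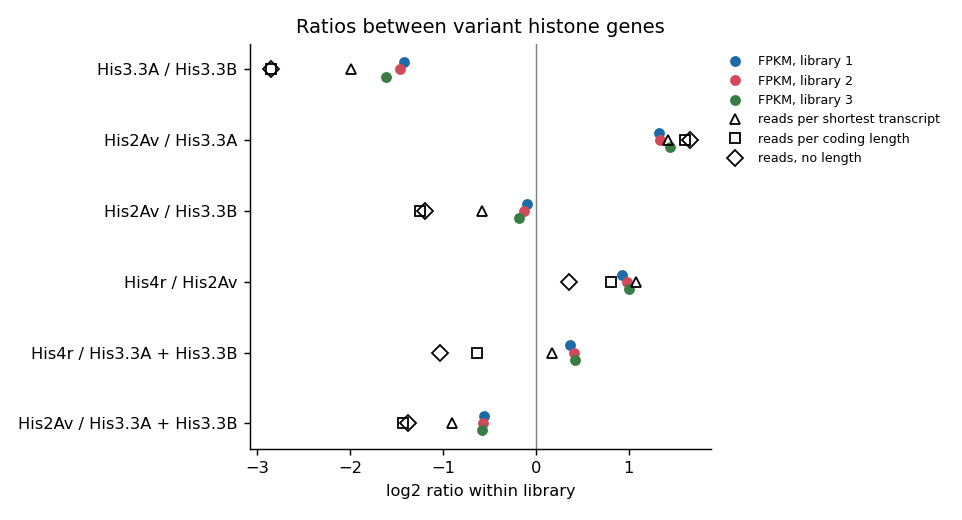
Log2 ratios between variant histone genes within each library (coloured points, FPKM + 0.1) and mean log2 ratios of recovered reads per shortest transcript, per coding length and without length (open symbols). Of the 6 ratios, His4r over summed H3.3 is the one that crosses 0, at 0.40 in FPKM and -1.03 without length.

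Genes whose products process canonical histone mRNA were expressed, although the mRNAs themselves are listed at 0. All 14 genes of histone 3′ end formation and the histone locus body reached 1 FPKM in every library, beside 42.9% of all genes, with a median level of 22.7 FPKM. Ars2, an RNA-processing factor that binds the cap complex, stood at 80.8 ± 1.13 FPKM, Clamp, a GA-repeat binding factor that also occupies the histone locus, at 64.3 ± 1.598 FPKM, and Slbp at 49.2 ± 1.70 FPKM (SD, n = 3 each). mute and mxc, components of the histone locus body, were at 18.6 ± 0.631 and 12.01 ± 0.467 FPKM. Lsm10 and Lsm11, subunits of the U7 particle, were at 3.91 ± 0.274 and 7.31 ± 0.457 FPKM, and the U7 RNA gene snRNA:U7, of 71 bases, was the lowest of the list with 3, 6 and 5 reads, or 1.59, 3.25 and 2.82 FPKM.

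Histone chaperones spanned a wide range of levels. Of 10 chaperone genes of H3 and H4 all were detected, beside 42.9% of all genes, with a median of 35.7 FPKM. CG8223, the fly NASP, stood at 183 ± 4.87 FPKM, Caf1-55, a subunit shared by the CAF-1 assembly factor and other complexes, at 172 ± 1.25 FPKM, and the H3.3 remodeller XNP at 64.2 ± 0.775 FPKM. The genes of the other CAF-1 subunits were at 27.6 ± 0.243 and 15.4 ± 0.407 FPKM. The H3.3 chaperone genes Hira and yem were close to each other, at 15.8 ± 0.925 and 16.6 ± 0.388 FPKM. All 7 chaperone genes of H2A, H2B and linker histones were detected, with a median of 280 FPKM, the highest of the lists. They were led by the nucleoplasmin-like genes Nlp at 607 ± 20.4 FPKM and Nph at 300.3 ± 9.55 FPKM and by Nap1 at 399 ± 6.83 FPKM, while the FACT subunit Ssrp was lowest at 102 ± 4.08 FPKM (SD, n = 3 each).

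The machinery for H2Av was expressed at lower levels than His2Av itself. All 15 genes of the Domino/Tip60 complex, which exchanges H2A for H2Av, were detected, beside 42.9% of all genes, with a median of 32.7 FPKM. They ranged from Bap55 at 103 ± 2.88 FPKM, pont at 78.6 ± 1.57 FPKM and rept at 75.0 ± 2.01 FPKM to Ing3 at 7.75 ± 0.692 FPKM, and the ATPase gene dom stood at 62.8 ± 3.45 FPKM (SD, n = 3 each).

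The centromeric H3 variant gene cid, whose symbol lies outside the naming rule, stood at 6.62, 7.32 and 7.01 FPKM in libraries 1, 2 and 3, below His3.3A in each. Its loading factor cal1 was at 21.8 ± 0.487 FPKM and Cenp-C at 22.7 ± 1.02 FPKM. None of 4 genes for proteins that replace histones in sperm reached 1 FPKM in every library, beside 42.9% of all genes that did. Mst77F was the highest, at 2.11, 0.289 and 0.901 FPKM, and ProtB, Prtl99C and ProtA, the lowest, averaged 0.297, 0.169 and 0.152 FPKM.

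**Figure D5:**
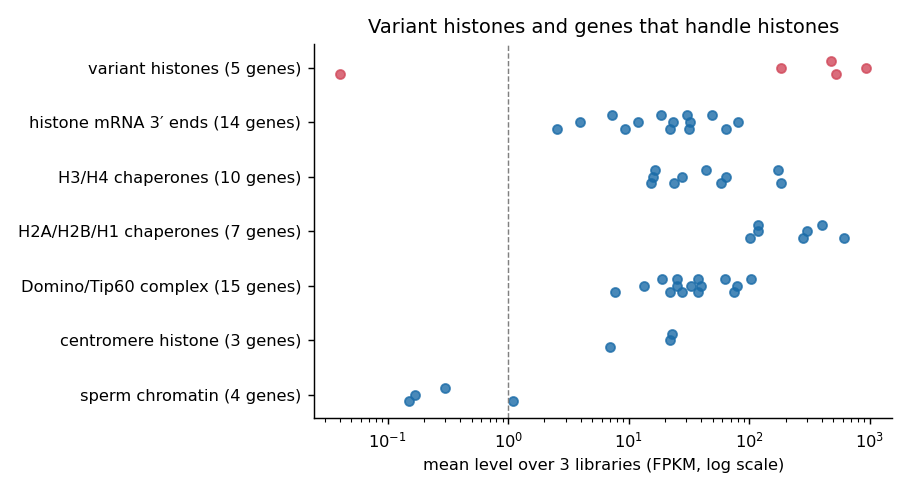
Mean level over 3 libraries in FPKM on a log axis, 1 point per gene, for the 5 variant histone genes in red and for 6 lists of genes that handle histones in blue, with 1 FPKM as a dashed line. All genes of the first 5 lists lie above 1 FPKM, and of the sperm chromatin genes Mst77F lies just above it, at a mean of 1.10 FPKM, with the others below.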

How the data were processed

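The authors deposited 1 table of FPKM values for 17611 genes, where each library has its own column. Columns were matched to samples by number. Per the submitters' processing notes, STAR 2.7.6a and featureCounts 1.6.0 were used with build dm6, along with FastQC 0.11.8, CASAVA 1.8 and DESeq2. The sources used here state no annotation, strand setting or handling of reads with several matches. Per the labels' protocols, TruSeq libraries were sequenced with paired reads of 50 nt.

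Each value was multiplied by the merged exon length in Ensembl release 115, found for 17551 genes. In each library over 99.7% of the genes above 0 gave a whole number of reads (tolerance 0.01 of a read) once divided by the value of 1 read. These are the recovered reads. They serve depth, intervals and alternatives.

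Detection means 1 FPKM or more in each library. limma 3.58.1 in R 4.3.3 tested mean log2(FPKM + 0.1) one-sided against 1 FPKM, with p-values adjusted by Benjamini-Hochberg over the 13909 genes not listed at 0 throughout, at a threshold of 0.05. It was tested on simulated data. Differences on this scale understate changes of low genes. Tables were handled with Python 3.11.15.

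The members and lists were chosen with earlier results of these data known. Named were all variants, the genes of the ratios, the 3 highest and the lowest of each list, and cid, Slbp and cal1. Other genes were named after their values were seen. Of the listed symbols, 5 were matched through RefSeq synonyms. No sequence is printed, and sequence was not used here.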

Additional observations from a re-analysis of the deposited data

How the results depend on the processing

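Detection of the variant genes (4 of 5) was the same with 1 FPKM in any library, with 0.5 or 2 FPKM in each, with 10 recovered reads in each and without any 1 library. The lowest value of these 4 genes was 177 FPKM, for His3.3A in library 3, and the highest of BigH1 was 0.0625 FPKM. The count therefore could not change under these thresholds. limma called the same 4 variants under every pseudocount, filter and trend setting and without any 1 library. With levels this far from 1 FPKM, these settings are no check of stability. The repeated copies, at 0 in every library, could not change under any of these settings or under rescaling, so their zeros say nothing about stability. Counts for the related lists kept within 1.5 times. Pseudocounts of 1 and 0.01 and leaving out a library moved no ratio by as much as 1 SD. Leaving out 1 of 3 libraries cannot move a mean that far, and these genes lie far above the pseudocounts. Neither outcome is therefore a check of stability.

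The ratios changed with the length used, by construction, since reads were divided by other lengths. Without length, the log2 ratios were -2.85 for His3.3A to His3.3B, 1.66 for His2Av to His3.3A, -1.19 for His2Av to His3.3B, 0.35 for His4r to His2Av, -1.03 for His4r to summed H3.3 and -1.38 for His2Av to summed H3.3. Per coding length, an alternative chosen after seeing the data, they were -2.85, 1.604, -1.25, 0.80, -0.63 and -1.43 in that order. Per shortest transcript, also chosen after seeing the data, they were -1.99 for His3.3A to His3.3B, -0.58 for His2Av to His3.3B, 1.07 for His4r to His2Av, 0.17 for His4r to summed H3.3 and -0.90 for His2Av to summed H3.3. That of His2Av to His3.3A was 1.42, less than 1 SD from its mean in FPKM. Of these ratios, only His4r to summed H3.3 changed sign. The ratio of His4r to His3.3B was not among them. His4r was higher in FPKM, but His3.3B was higher in recovered reads and per coding length.

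Planned ratios of variants to the repeated copies were not computed, because those copies are listed at 0 in every library. No paired analysis was possible because there is 1 group. Depth limits BigH1, with 4 reads in all, and snRNA:U7, with 14.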
